A study of Mus musculus with 2 samples.

Results

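Paneth cells were taken here as the sorted intestinal cells in which alpha-defensin and lysozyme transcripts made up at least 10% of all unique molecular identifiers (UMIs, one per captured transcript). The genes counted were every symbol that starts with Defa together with Gm14851, AY761184 and Lyz1, called gate genes below. Of 12554 kept cells, 565 (4.5%) passed: 362 of 7401 in wild type (WT) mice and 203 of 5153 in MG53-TG mice. The cells were thus chosen by their own defensin and lysozyme values, so levels of these genes, and of genes that travel with them, are given as a description of the chosen cells.

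The study compared WT mice with MG53-TG mice, which overexpress MG53, a membrane repair protein of the tripartite motif family encoded by Trim72, throughout the body and not in a chosen cell type. Mice of both groups drank 2.5% DSS (dextran sulfate sodium), which damages the gut epithelium, and were sampled on day 7. Crypt cells of the intestine were dissociated, sorted as EpCAM positive and 7-AAD negative, that is as live epithelial cells, and captured in droplets for 10x 3′ sequencing. There was 1 library of each genotype, and neither group was free of DSS. The study's text counts several animals per group for this experiment, but the labels give neither their number nor their age, and the tables do not keep them apart. Genotype, library and processing run therefore cannot be told apart, no test between genotypes was made, and every interval below covers counting error only.

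Paneth cells sit at the base of small intestinal crypts between the stem cells. They fill large granules with antimicrobial proteins, above all alpha-defensins and lysozyme, and release them into the lumen; matrilysin (Mmp7) cuts mouse pro-defensins into their active form. They also supply the neighbouring stem cells with signals such as Wnt3, and they share a secretory precursor with goblet cells, which make mucus.

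A kept cell reached 1354 UMIs and 200 genes, with mitochondrial genes at 25% of its UMIs or below. Median depths were 33089 (WT) and 26784 UMIs (MG53-TG) in Paneth cells, the other kept cells having 14035 and 17992 UMIs. Their median mitochondrial share was 1.66% and 1.53%, against 4.58% and 4.11% in the others. The 2 libraries shared 8 barcodes among kept cells and 0 among Paneth cells. RNA outside cells was rich in gate genes: barcodes with 1 to 99 UMIs, which only the WT table holds, gave 4.83% of their UMIs to them. In T cells, which should make none, the share was 0.394% in WT (658 cells) and 0.162% in MG53-TG (268 cells). Their median depths were 2654.5 and 3324 UMIs. These T cells were taken among kept cells outside the gate, so each lay below 10% by choice.

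By this gate 4.89% of WT cells were Paneth cells (exact Clopper-Pearson interval 4.41 to 5.41). In MG53-TG the share was 3.94% (interval 3.42 to 4.51). The difference was -0.952 percentage points (Newcombe interval -1.67 to -0.217), with 1 library on each side. At a gate of 5% it was -0.507 points (interval -1.35 to 0.359), which spans 0. Some gate genes themselves differed between the libraries, as given below, so this share depends on them.

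Within the gate the cells were far from uniform. The gate-gene share ran from 10.04% to 84.4% of a cell's UMIs in WT and from 10.04% to 84.5% in MG53-TG. The median was 61.0% in WT (upper quartile 76.3%) and 38.8% in MG53-TG (upper quartile 70.6%). Of the WT cells, 187 (51.7%) stood at 60% or more, and of the MG53-TG cells 76 (37.4%). Both distributions fell from the gate upward, held few cells between 45 and 60%, and rose again to a heap near 75%. Summed over all Paneth cells, gate genes held 61.2% (WT) and 56.1% (MG53-TG) of UMIs. The difference was -5.07 points, and -1.08 points among cells at 40% or more.

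**Figure D1:**
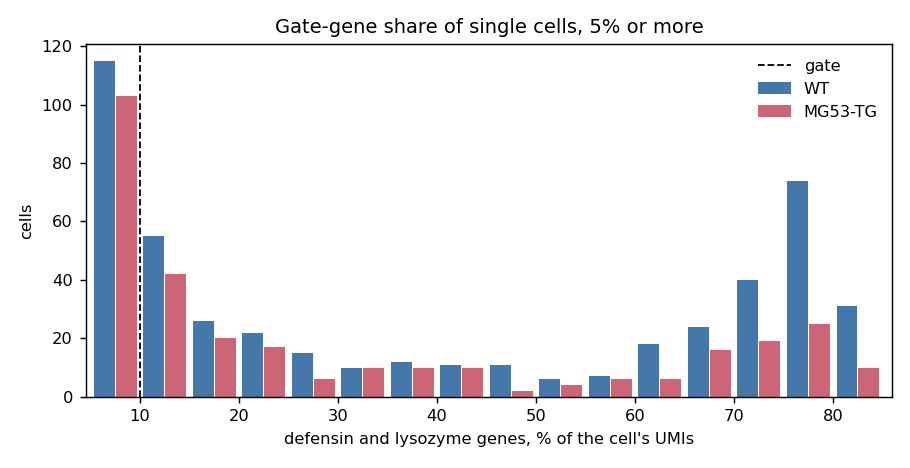
Number of kept cells (vertical axis) by the share of a cell's UMIs in gate genes (horizontal axis, percent, in steps of 5), for WT (blue) and MG53-TG (red). The dashed line marks the 10% gate. Cells with less than 5% are not drawn. The 115 WT and 103 MG53-TG cells between 5 and 10% lie outside the gate, and a heap stands near 75%.

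The border of the gate cut through a continuous slope. The lowest cells inside had shares of 10.04% in WT and 10.04% in MG53-TG, and the highest outside had 9.94% and 9.86%. Between 9 and 10% lay 18 WT and 12 MG53-TG cells, and between 10 and 11% lay 12 and 8. The other kept cells had a median share of 0.129% in WT and 0.0625% in MG53-TG.

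Alpha-defensins are described first, as genes that chose the cells. Their genes lie in a cluster on mouse chromosome 8, and the count table holds 25 gate genes, of which 21 had at least 100 UMIs in Paneth cells and Defa25 had 0. Defa24 (ENSMUSG00000064213, chromosome 8, 21734494 to 21735471, plus strand, GRCm38) was the most abundant, with 28.1% of all Paneth UMIs in WT and 27.4% in MG53-TG. It was the leading gate gene in 360 of 362 WT and 202 of 203 MG53-TG cells, Lyz1 leading in the others. Defa30 followed with 11.05% (WT) and 9.69% (MG53-TG). AY761184, an alpha-defensin gene known only by its sequence name, held 5.77% and 5.42%. Lyz1 (ENSMUSG00000069515, chromosome 10, 117287797 to 117292868, minus strand), the lysozyme that cuts bacterial cell walls, held 3.73% and 3.96%. The same order of the 4 leading genes was thus found in both libraries. A 3′ count has one tag per transcript, so these shares compare genes without a correction for length.

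Below these genes stood Gm14851 (3.24% of Paneth UMIs in WT and 2.58% in MG53-TG), Defa22 (2.53 and 1.39%), Defa21 (2.28 and 1.16%), Defa17 (1.89 and 2.04%) and Defa29 (1.03 and 0.748%). Each of the other 12 genes with at least 100 UMIs held 0.517% or less in both libraries. Near-identical 3′ ends limit how reads can be assigned within the family. Among windows of 90 bases in the last 400 bases of the annotated transcripts, none of those of Defa24, AY761184 and Lyz1 recurred in another of the 29 genes compared. For Defa21 and Defa22, 41.8% of windows recurred, each in the other gene. For Defa17 90.9% recurred in Defa3, for Defa34 75.9% in Defa5, and for Defa36 all recurred in Defa37. Values of Defa21 and Defa22 are therefore best read as a pair, and those of Defa17, Defa34 and Defa36 together with their partners.

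Defa21 and Defa22 are used further on to group the cells, and their promoters are shown beside 3 others of the cluster. Each is the RefSeq window from 250 bases before to 50 bases after the annotated start on GRCm38.p6, written 5′ to 3′ in the direction of the gene. Capitals mark TATAAA, the TATA box letters, and ATCAAAG, the reverse complement of CTTTGAT, letters of the kind bound by the T cell factor family through which Wnt signals act. Both strands were searched, and the marked matches do not overlap.
Defa21, chr8:21025295-21025594, plus strand: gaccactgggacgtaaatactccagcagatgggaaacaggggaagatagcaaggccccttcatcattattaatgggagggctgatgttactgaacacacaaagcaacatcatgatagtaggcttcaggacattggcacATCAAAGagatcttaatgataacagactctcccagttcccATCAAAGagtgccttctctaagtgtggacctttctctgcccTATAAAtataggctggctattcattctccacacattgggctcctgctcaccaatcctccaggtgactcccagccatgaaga
Defa30, chr8:21134400-21134699, plus strand: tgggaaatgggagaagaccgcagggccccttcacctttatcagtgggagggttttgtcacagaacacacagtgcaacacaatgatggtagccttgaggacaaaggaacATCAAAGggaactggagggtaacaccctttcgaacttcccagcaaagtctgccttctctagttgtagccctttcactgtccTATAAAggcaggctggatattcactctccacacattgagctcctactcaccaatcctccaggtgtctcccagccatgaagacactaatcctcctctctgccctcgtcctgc
Defa41 (Gm15293 in the count table), chr8:21201354-21201653, plus strand: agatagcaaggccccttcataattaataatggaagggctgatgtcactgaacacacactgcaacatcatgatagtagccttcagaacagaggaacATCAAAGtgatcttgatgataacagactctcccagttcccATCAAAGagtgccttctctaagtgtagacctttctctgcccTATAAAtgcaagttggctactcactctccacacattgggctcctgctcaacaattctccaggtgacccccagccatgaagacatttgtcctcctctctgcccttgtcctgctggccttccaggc
Defa43 (Gm7861 in the count table), chr8:21594416-21594715, minus strand: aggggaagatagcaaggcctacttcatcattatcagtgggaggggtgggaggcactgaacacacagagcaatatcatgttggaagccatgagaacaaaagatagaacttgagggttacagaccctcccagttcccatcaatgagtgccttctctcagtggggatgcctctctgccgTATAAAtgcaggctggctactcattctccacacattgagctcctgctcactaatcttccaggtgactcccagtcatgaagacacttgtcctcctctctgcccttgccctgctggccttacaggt

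The window of Defa22, at chr8:21162027-21162326 on the plus strand, was identical to that of Defa21 over all 300 bases, although the starts lie 136732 bases apart. Aligned with free ends, Defa21 shared 91.1% of bases with Defa41, 87.2% with Defa43 and 80.4% with Defa30. Defa21 and Defa22 had ATCAAAG at 112 and 72 bases before the start, Defa41 at 155 and 115, and Defa30 once, at 142. Of 16 alpha-defensin promoters in the RefSeq table, 13 held CTTTGAT on either strand, and 9 of them held it in 2 places, against 3.73% of all 32851 promoters with at least 1 match. TATAAA was found in 15 of the 16, against 13.6% of all. The windows of Defa23 and Defa31, and those of Defa42 and Defa43, were also identical over all 300 bases. The 16 promoters are thus not independent of each other. Of the 25 gate genes, 13 were matched to this table, by symbol or by the nearby start site on the same strand. These matches describe letters, and no binding was measured here.

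The mix of gate genes changed with the share they held together. In cells at 40% or more, Defa24 made up 44.8% of gate-gene UMIs in WT and 46.1% in MG53-TG, Defa30 made up 18.5 and 19.1%, and Defa17 made up 2.81 and 2.84%. In cells between 10 and 20%, Defa24 made up 72.8 and 81.8%, Defa30 only 4.24 and 0.330%, and Defa17 10.3 and 9.48%. Cells low in gate genes thus held mainly Defa24 and Defa17, and in WT also more Defa30 than in MG53-TG. The cells just outside the gate, between 5 and 10%, had the mix of the low cells, with Defa24 at 79.9 and 81.7%.

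**Figure D2:**
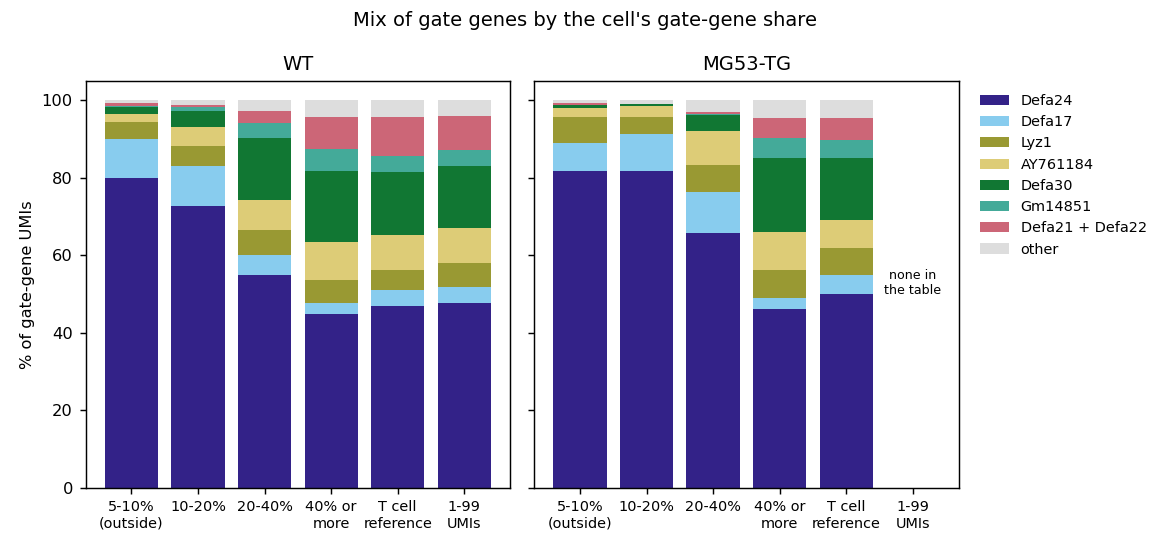
Percent of gate-gene UMIs (vertical axis) held by each gene in WT (left) and MG53-TG (right), for cells grouped by their gate-gene share, for T cells and, in WT, for barcodes with 1 to 99 UMIs. Defa24 falls from 72.8 to 44.8% in WT and from 81.8 to 46.1% in MG53-TG between the 10-20% and the 40% or more group, while Defa30 and Defa21 + Defa22 rise.

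RNA from outside the cell has another mix. The gate genes of T cells were 46.8% Defa24 and 16.2% Defa30 in WT and 50.1 and 16.1% in MG53-TG. In WT barcodes with 1 to 99 UMIs, Defa24 was 47.7%, Defa30 16.0% and the pair of Defa21 and Defa22 8.69%. Each of these lies near the mix of cells at 40% or more and away from that of cells between 10 and 20%.

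Summed over all Paneth cells, most abundant defensins took a similar share of gate-gene UMIs in both genotypes. Of the 21 genes with at least 100 UMIs, 10 were lower and 11 higher in MG53-TG, and 3 were lower and 3 higher by 1.5-fold or more. The lower ones were Defa21 (log2 ratio -0.86, interval -0.87 to -0.84), Defa22 (-0.74) and Defa35 (-0.67). The higher ones were Defa36 (0.64), Defa34 (0.82) and Defa27 (0.59), the last with only 101 UMIs in all. Of the 3′ windows of Defa34, 75.9% recur in Defa5, whose ratio was 0.05. Within cells at 40% or more, the ratios were -0.79 for Defa21 and -0.68 for Defa22, and 0.67 for Defa36. The ratio of Defa24 was 0.09, that of Defa30 -0.06 and that of AY761184 0.03, whereas Lyz1 stood at 0.21. These sums rest mostly on cells at 40% or more. Between 10 and 20%, Defa30 held 4.24% of gate-gene UMIs in WT cells and 0.330% in MG53-TG cells, and between 20 and 40% it held 15.8 and 4.15%, against 18.5 and 19.1% at 40% or more. Defa21 held 0.339 and 0.0564% in the first of these groups and 1.53 and 0.373% in the second. Both were thus lower in MG53-TG cells below 40%.

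Another 4 genes of the same cluster fall outside the gate by their names. Gm7861, the gene of the Defa43 promoter above, reached 20235 UMIs per 1000000 UMIs outside the gate genes (CPM, the scale used for all genes from here on) in WT and 13541 CPM in MG53-TG. Gm15292 reached 3396 and 2240 CPM, and Gm15293, the gene of the Defa41 promoter, 3140 and 3252 CPM. Gm7849 had 57.8 and 46.8 CPM, and 94.2% of its 3′ windows recur in Gm7861. The log2 ratio of MG53-TG over WT was -0.58 for Gm7861 (interval -0.60 to -0.56), -0.60 for Gm15292 and 0.05 for Gm15293. These sums joined unequal ratios: from the lowest to the highest gate-gene share Gm15292 had -3.31, -2.71 and -0.29, Gm15293 had -2.69, -0.39 and 0.34, and Gm7861 had -0.72, 0.68 and -0.41. In the other kept cells the first 3 lay between 0.993 and 31.7 CPM.

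The label was then checked against the markers Lyz1, Defa24, Mmp7 and Mptx2, of which the first pair is part of the gate. Mmp7 had 6179 (WT) and 6814 CPM (MG53-TG) Paneth cells, against 222 and 223 CPM in the other kept cells. Mptx2, a mucosal pentraxin, had 13446 and 13611 CPM, against 13.9 and 8.96 CPM. With each cell thinned to 1354 UMIs, an Mmp7 UMI was found in 87.8% of WT and 88.2% of MG53-TG Paneth cells, and in 2.58 and 2.99% of T cells. An Mptx2 UMI was found in 64.4% (interval 59.2 to 69.3) and 45.8% (interval 38.8 to 52.9), and in 4.10 and 1.87% of T cells. Unthinned, the Mptx2 shares were 76.0 and 57.6% of Paneth and 6.08 and 4.85% of T cells. Mmp7 thus went with the gate in nearly every cell, whereas Mptx2 did not.

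Many genes outside the gate were also higher in Paneth cells. Of 2045 genes with at least 30 UMIs in total and 50 CPM in Paneth cells of both libraries, 40 (1.96%) were 4-fold or more above the other kept cells in each library. The 15 highest, ranked by the lower of both ratios, were Gm15292, Mptx2, Gm15293, Gm7861, Smim38, Samd5, Pnliprp2, Clps, Itln1, Habp2, Ang4, Bambi, Defb1, Tmed6 and Tent5c. Itln1, an intelectin that binds microbial sugars, was the most abundant, at 76566 (WT) and 79917 CPM (MG53-TG) against 793 and 1062 CPM in the others. Ang4, an antimicrobial ribonuclease, had 29874 and 33569 CPM against 440 and 937 CPM. Clps, the colipase known from the pancreas, had 11411 and 10348 CPM, and Pnliprp2, a lipase of the same setting, 1830 and 1729 CPM. These cells were picked on genes made by Paneth cells, so the list describes them and is no test of what they are.

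Several genes with other roles passed the same limit after the first 15. Wnt3, the stem cell signal, had 91.4 and 125 CPM against 4.44 and 5.64 CPM in the others. Ephb3, a receptor that holds Paneth cells at the crypt base, had 59.6 and 107 CPM against 3.61 and 4.38 CPM. Reg4 had 2378 and 2558 CPM against 222 and 136 CPM, and Nupr1, a stress-response protein, 1315 and 960 CPM against 51.1 and 116 CPM.

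Cells low in gate genes differed from the rest in more than their defensins. Between 10 and 20% lay 81 WT cells (22.4%) and 62 MG53-TG cells (30.5%), between 20 and 40% lay 59 (16.3%) and 43 (21.2%), and at 40% or more lay 222 (61.3%) and 98 (48.3%). Median depth was 15491 and 18387.5 UMIs in the lowest group and 49312 and 45690 UMIs in the highest. A gate of 10% thus drew more of its cells from the lowest group in MG53-TG than in WT.

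Mptx2 rose steeply with the gate-gene share, though less steeply than Gm15293 and Gm15292 of the defensin cluster. It had 446 (WT) and 79.2 CPM (MG53-TG) in cells between 10 and 20%, 3057 and 641 CPM between 20 and 40%, and 22463 and 28803 CPM at 40% or more. With cells thinned, an Mptx2 UMI was found in 12.3, 47.5 and 87.4% of WT cells in these groups and in 6.45, 16.3 and 81.6% of MG53-TG cells. Thinned, the lowest MG53-TG group, at 6.45% (interval 1.79 to 15.7), could not be told from the 1.87% of T cells (interval 0.608 to 4.30). Unthinned, 16.1% of this group and 4.85% of the shallower T cells had an Mptx2 UMI. The 79.2 CPM of this group stood above the 6.62 CPM of MG53-TG goblet comparison cells, defined below. Mmp7 rose less, from 3171 to 8608 CPM in WT and from 2799 to 9479 CPM in MG53-TG. Itln1 rose from 19291 to 116367 CPM and from 17473 to 139008 CPM, and Ang4 from 4074 to 48557 CPM and from 10616.5 to 57752 CPM. Wnt3 rose from 38.5 to 132 CPM and from 51.8 to 170 CPM.

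Goblet genes ran the other way. Muc2, the main gel-forming mucin of the gut, had 11806 (WT) and 12788 CPM (MG53-TG) in cells between 10 and 20%, which is at or above the 9528 and 9093.5 CPM of goblet comparison cells, kept cells outside the gate with at least 1% of UMIs in 5 goblet genes (2144 and 2214 cells). At 40% or more Muc2 had 4625 and 4507 CPM. Zg16, a lectin of the mucus, fell from 16913 to 2009 CPM in WT and from 20708 to 620 CPM in MG53-TG, and Clca1, a mucus-processing protein, from 3749 to 274 CPM and from 7565 to 740 CPM. Those 5 goblet genes together held a median of 5.05 and 6.18% of UMIs in the lowest group against 0.230 and 0.238% in the highest. In the lowest group Zg16 and Clca1 stood below goblet comparison cells, which had 53615 and 55246 CPM of Zg16 and 6475 and 8392 CPM of Clca1. The lowest group thus carried Mmp7, Itln1 and Ang4 above goblet cells together with Muc2 at their level, and it is named here by its gate-gene share only. Doublets of a Paneth and a goblet cell were not identified, since Scrublet's automatic threshold marked only 1 WT and 2 MG53-TG cells of all kept cells, and their part was not tested. Leaving out the 438 WT and 212 MG53-TG cells with the highest scores removed 18 WT and 1 MG53-TG Paneth cells. Median depth in this group, 15491 and 18387.5 UMIs, was close to the 15039 and 18533 UMIs of goblet comparison cells.

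**Figure D3:**
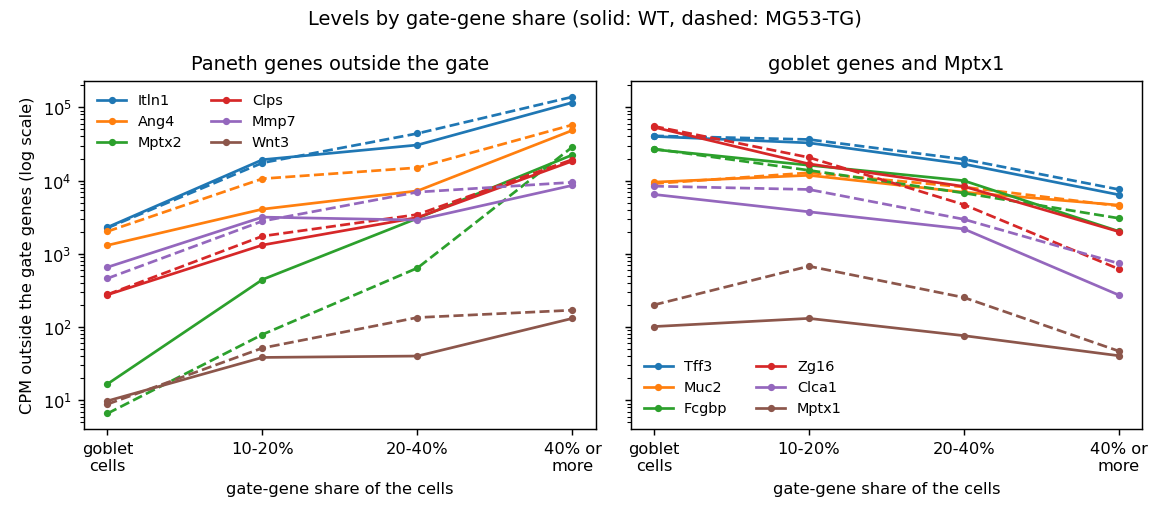
CPM outside the gate genes (vertical axis, log scale) in goblet comparison cells and in Paneth cells by gate-gene share (horizontal axis), for 6 Paneth genes (left) and for 5 goblet genes with Mptx1 (right), in WT (solid) and MG53-TG (dashed). Mptx2 climbs from 446 to 22463 CPM in WT and from 79.2 to 28803 CPM in MG53-TG, while Zg16 and Clca1 fall. Lines join group values and have no replicate error.

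Mptx1, the neighbour of Mptx2 in the pentraxin family, did not follow it. It had 132, 76.4 and 40.7 CPM in the 3 WT groups from low to high share, and 678, 254 and 47.0 CPM in the MG53-TG groups. Thinned, 19.4% of MG53-TG cells between 10 and 20% had an Mptx1 UMI (interval 10.4 to 31.4) against 3.70% of WT cells (interval 0.770 to 10.4). In goblet comparison cells Mptx1 had 102 and 201 CPM. Few cells carried it: 62.3% of its WT and 60.3% of its MG53-TG UMIs came from 5 cells each, and the thinned WT shares of 3.70, 3.39 and 1.35% had overlapping intervals. Mptx1 thus did not rise with the gate-gene share as Mptx2 did.

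MG53-TG and WT Paneth cells were then compared gene by gene outside the gate. Among 2413 genes with at least 30 UMIs in total and 50 CPM in either library, 62 (2.57%) were 1.5-fold or more higher and 102 (4.23%) lower in MG53-TG. The median log2 ratio was 0.03, and 1331 genes were above 0. The split turned with the scale: with gate genes left in the total, 952 genes met the minimums, 102 of them higher and 21 lower, and the median ratio was 0.23. A gene that reached 50 CPM in only 1 library could differ in 1 direction only, which is said below where it applies. The ratios also turned on how cells were chosen: with at least 0.1% of UMIs in Mmp7 and Mptx2 as the choice (831 WT and 483 MG53-TG cells), 9 of 2486 genes were higher and 25 lower, and of 44 named genes past 1.5-fold 14 stayed past it. Trim72, the gene of the transgene, had 3 UMIs in WT Paneth cells (0.542 CPM) and 310 in those of MG53-TG (100.1 CPM), a log2 ratio of 7.53 (interval 5.97 to 9.81). A Trim72 UMI was found in 3 of 362 WT and 101 of 203 MG53-TG Paneth cells, so both libraries bore out their labels.

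**Figure D4:**
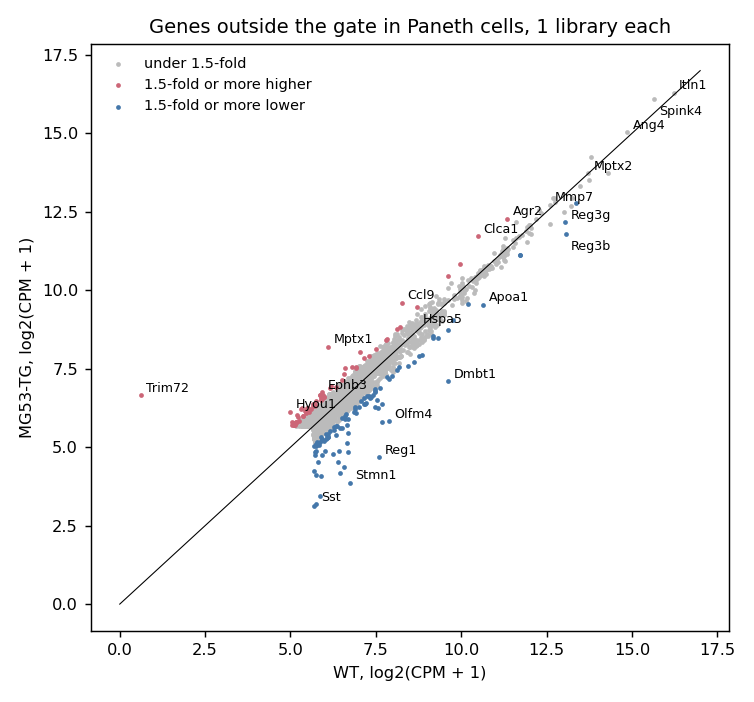
Level of 2413 genes outside the gate in WT (horizontal axis) and MG53-TG (vertical axis) Paneth cells, each as log2(CPM + 1) from 1 library. Red points are 1.5-fold or more higher in MG53-TG (62 genes), blue points lower (102 genes), and the line marks equal levels. Itln1, Ang4, Mptx2 and Mmp7 lie close to the line, and Trim72 stands alone at the left.

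Most granule products were within 1.5-fold when summed over all Paneth cells. Of 17 granule products outside the gate that met the minimums, 13 were within 1.5-fold, 3 were lower and 1 was higher. Of all 2413 genes, 4.23% were lower and 2.57% higher, so a larger part of this list passed 1.5-fold. The median log2 ratio of the list was 0.11 against 0.03 over all 2413 genes. The ratio was 0.06 for Itln1, 0.17 for Ang4, 0.02 for Mptx2, 0.14 for Mmp7 and 0.46 for Spink4, an inhibitor of proteases with 51295 (WT) and 70426 CPM (MG53-TG). Below 40% some stood farther apart: Ang4 had 1.38 between 10 and 20% and 1.05 between 20 and 40%, Pnliprp2 had 1.58 and 1.025, and Mmp7 had -0.18 and 1.27, against 0.25, 0.01 and 0.14 at 40% or more. Reg3b, Reg3g and Dmbt1 were lower and Mptx1 was higher. The summed value of Mptx2 joined opposite ratios, -2.49 between 10 and 20%, -2.25 between 20 and 40% and 0.36 at 40% or more. In cells at 40% or more, 5 of the 17 were lower and 0 higher, while of all 2413 genes 3.77% were lower and 2.9% higher there. The 5 were Reg3b, Reg3g, Dmbt1, Retnlb (-0.65) and Zg16 (-1.69), the last with 0.25 over all Paneth cells.

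Reg3b and Reg3g are lectins that bind bacteria. Reg3b had 8531 (WT) and 3540 CPM (MG53-TG) (log2 ratio -1.27, interval -1.30 to -1.24), and -1.46 in cells at 40% or more. In the other kept cells its ratio was -0.64. Reg3g had 8488 and 4586 CPM (-0.89), against -0.63 in the others. Both were thus lower in MG53-TG inside and outside the gate. In cells chosen by Mmp7 and Mptx2 they were under 1.5-fold, at -0.49 and -0.50. Empty WT barcodes held 12371 CPM of Reg3b and 4329 CPM of Reg3g; the part of such RNA was not tested. Dmbt1, a scavenger receptor protein of mucosal surfaces, had 781 and 137 CPM (-2.52), with -1.35 in cells at 40% or more and -0.83 in the others. Most of its MG53-TG UMIs, 65.2%, came from 5 cells.

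Among the genes highest in MG53-TG after Trim72, Clca1 and Agr2 are on the goblet list and Hyou1 and Agr2 on the list of folding genes. Mptx1 came first, with 68.1 (WT) and 292 CPM (MG53-TG) and a log2 ratio of 2.101, but its ratio was 0.21 (interval -0.24 to 0.65) in cells at 40% or more and 1.48 in the other kept cells. Ccl9, a chemokine, had 307 and 777 CPM (1.34), with 1.23 in cells at 40% or more and 0.47 in the others. Clca1 had 1444 and 3389 CPM (1.23), and 1.43 in cells at 40% or more. Scin, an actin-severing protein, had 131 and 262 CPM (0.998), close to its 1.005 in the others. The other 5 were Hyou1 (1.15), Agr2 (0.93), Fkbp11 (0.93), Gm26917 (0.93) and Tmem263 (0.90), of which Hyou1, Gm26917 and Tmem263 reached the minimum only in MG53-TG. Of these 9 genes, Mptx1, Agr2 (0.55) and Gm26917 (0.48) were under 1.5-fold in cells at 40% or more. In cells chosen by Mmp7 and Mptx2 only Mptx1 (1.37) and Hyou1 (0.90) stayed past it, with Ccl9 at 0.52, Clca1 at 0.30, Scin at 0.26, Agr2 at 0.39, Fkbp11 at 0.42, Gm26917 at 0.50 and Tmem263 at 0.43.

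Genes for protein folding in the endoplasmic reticulum leaned higher in MG53-TG. Of 21 that met the minimums, 20 were above 0 in MG53-TG, 7 were 1.5-fold or more higher and 0 lower, with a median log2 ratio of 0.55 against 0.03 over all genes, of which 55.2% were above 0 and 2.57% higher. Hspa5, the main chaperone of that compartment, had 418 (WT) and 708 CPM (MG53-TG) (log2 ratio 0.76, interval 0.68 to 0.85). Calr, which binds calcium and unfolded glycoproteins, had 492 and 718 CPM (0.55). Pdia4 and Pdia6, which form disulfide bonds, had ratios of 0.70 and 0.66, Dnajb9 had 0.74 and Sdf2l1 0.77. In cells at 40% or more the list median was 0.30, with 4 genes higher and Hspa5 (0.57), Sdf2l1 (0.30) and Agr2 (0.55) under 1.5-fold, and in the other kept cells it was 0.39. The other kept cells thus leaned the same way. In cells chosen by Mmp7 and Mptx2 the median was 0.33 and 6 of the 7 were under 1.5-fold, from 0.34 for Dnajb9 to 0.58 for Pdia4, Hyou1 being the exception. P4hb and Xbp1, the transcription factor of the folding response, had ratios of 0.07 and 0.14.

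All 21 measured genes of the secretory pathway and exocytosis were above 0, none by 1.5-fold, with a median of 0.35 (0.24 in cells at 40% or more and 0.31 in the others). Sec61b, a part of the channel into the endoplasmic reticulum, had 777 and 1088 CPM (0.48). Of 13 fate factors and receptors, 12 were above 0, with a median of 0.37 and only Ephb3 past 1.5-fold (0.84, interval 0.61 to 1.06), which was under it with the gate at 5% (0.55) and in cells chosen by Mmp7 and Mptx2 (0.58). Sox9, a transcription factor that Paneth cells need, had 235 and 287 CPM (0.29), and Creb3l1 0.57. Wnt3 alone met the minimums among 12 niche signals (0.45, interval 0.26 to 0.64). Of the other niche signals, the Notch ligands Dll1 and Dll4 had 32.3 and 22.4 CPM in WT and 36.2 and 31.0 CPM in MG53-TG. Ratios of all these lists leaned above 0, as did 55.2% of all genes.

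The lowest genes in MG53-TG were Stmn1 (-2.97), Reg1 (-2.97), Chgb (-2.71), Sst (-2.70), Dmbt1 (-2.52), Top2a (-2.51), Tuba1b (-2.34), Clca3b (-2.26), Olfm4 (-2.07) and Tubb5 (-1.89). All but Dmbt1 and Olfm4 reached the minimum only in WT and so had to be lower. Stmn1, which frees tubulin in dividing cells, had 107 (WT) and 13.6 CPM (MG53-TG), and Top2a, the topoisomerase of dividing cells, 57.1 and 10.01 CPM. Empty WT barcodes held 140 CPM of Stmn1, 359 CPM of Reg1, 1240 CPM of Dmbt1 and 202 CPM of Olfm4. WT Paneth cells had 107, 192, 781 and 234 CPM of these genes. The part of such RNA was not tested. Of 20 cell cycle genes 5 met the minimums, with a median of -2.34 (-1.70 in cells at 40% or more) and -0.28 in the other kept cells. Only Hmgb2 (203 and 55.2 CPM) of the 5 met the CPM minimum in both libraries. With cells picked by Mmp7 and Mptx2 in place of the gate, the median was 0.0499. Few cells carried these UMIs: a Stmn1 UMI was found in 76 of 362 cells in WT and 25 of 203 in MG53-TG, with 30.5% of the WT UMIs in 5 cells.

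Single cells weighed on several of these. Of the 291 Sst UMIs in WT, 71.5% came from 1 cell, and of the 1063 Reg1 UMIs, 82.2% came from 5 cells. Sst is a hormone of enteroendocrine cells and Reg1 a regenerating protein. Of the 280 Chgb UMIs, 66.8% came from 5 cells, and of the 1297 Olfm4 UMIs, a stem cell gene, 53.5%. In cells at 40% or more the ratio of Olfm4 was only -0.33 and that of Sst -0.47. Chgb (-1.49) and Reg1 (-0.83) stayed past 1.5-fold there.

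Most measured enterocyte genes, which absorptive cells express, were lower in MG53-TG Paneth cells. Of 8 that met the minimums, 6 were 1.5-fold or more lower and 0 higher, where 4.23% of all genes were lower, with a median of -0.74 against 0.28 in the other kept cells. Without the cells of highest Scrublet scores, Sis (-0.51) and Anpep (-0.53) were under 1.5-fold, and Anpep was so in 7 alternatives. Apoa4 was at -0.22 with the gate at 5%, -0.30 in cells chosen by Mmp7 and Mptx2 and -0.55 over all UMIs, and Slc5a1 at -0.55 in cells chosen by Mmp7 and Mptx2. At least 1% of UMIs in enterocyte genes was found in 38 WT and 6 MG53-TG Paneth cells; their part was not tested. Apoa1, an apolipoprotein, had 1606 (WT) and 746 CPM (MG53-TG) (-1.11, interval -1.17 to -1.04), against -0.07 in the others. Sis, a disaccharidase, had 140 and 82.7 CPM (-0.76), and Slc5a1, the glucose carrier, 103 and 59.1 CPM (-0.80). Fabp1 and Fabp2, fatty acid binding proteins, were at 0.08 and -0.02, but 5 cells held 91.7% of the Fabp1 UMIs in MG53-TG (43.8% in WT). In cells at 40% or more Fabp1 was at 0.53 (interval 0.45 to 0.60) and Fabp2 at -0.80. Empty WT barcodes held 6919 CPM of Apoa1 and 2637 CPM of Fabp1, more than Paneth cells did; the part of such RNA was not tested. Enterocyte genes summed to 5150 (WT) and 3928 CPM (MG53-TG) in Paneth cells.

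Other cell types left uneven traces. The 10 goblet genes had a median ratio of 0.46, with Clca1, Agr2, Klk1 and Capn9 1.5-fold or more higher, where 2.57% of all genes were, Capn9 (35.2 and 63.6 CPM) reaching the minimum only in MG53-TG. In cells chosen by Mmp7 and Mptx2 all 4 were under 1.5-fold (0.30, 0.39, 0.33 and 0.21), and in thinned cells Klk1 (0.50) and Capn9 (0.52) were. The 10 genes summed to 39537 (WT) and 52465 CPM (MG53-TG), against 48010 and 70917 CPM in the other kept cells. Tuft cell genes summed to 228 (WT) and 18.1 CPM (MG53-TG). There, 11 WT cells and 0 MG53-TG cells had at least 10 tuft UMIs, and Dclk1, a defining tuft gene, had 211 UMIs in 17 cells and 2 UMIs in 2 cells. T cell genes had 559 (WT) and 43 UMIs (MG53-TG), and macrophage and neutrophil genes summed to 8.85 and 8.40 CPM, with Csf1r, C1qb, C1qc, S100a8 and S100a9 at 0 in both. Their part in the gene ratios was not tested.

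Of the remaining lists, few members moved. Mt1 and Mt2, metallothioneins that bind zinc, were lower (864 and 536 CPM, -0.69, and 159 and 94.6 CPM, -0.75), but both were under 1.5-fold in cells at 40% or more (-0.52 and -0.49), with the gate at 5% (-0.44 and -0.38), in cells chosen by Mmp7 and Mptx2 (-0.47 and -0.43) and over all UMIs (-0.51 and -0.57), whereas Slc30a2, a zinc carrier of granules, had 48.6 and 57.5 CPM (0.24). Glycolysis genes had a median of -0.46, with 9 of 10 below 0 and Pgk1 and Eno1 1.5-fold or more lower, where 4.23% of all genes were. Pgk1 was under 1.5-fold in 6 alternatives, the smallest difference being -0.17, and Eno1, which reached the minimum only in WT, turned to 0.86 in thinned cells. Eno1 was under 1.5-fold with the gate at 5% (-0.25), without the highest Scrublet scores (-0.46) and in cells chosen by Mmp7 and Mptx2 (-0.30). It was so too as a mean of cells (-0.51) and over all UMIs (-0.44). PPAR and fatty acid oxidation genes had a median of 0.02 over 17 genes, with 0 past 1.5-fold. Ucp2, a mitochondrial carrier of that list, was at 0.02. Among 12 genes of the Atf4 amino acid response, with a median of 0.31, only Vldlr passed (0.66), which reached the minimum only in MG53-TG. Vldlr was at 0.56 with the gate at 5% and at 0.40 in cells chosen by Mmp7 and Mptx2. Among 6 genes of dissociation stress, with a median of 0.28, only Jun passed (0.65, but 0.55 with the gate at 5%). Jun again reached the minimum only in MG53-TG. Of all genes, 2.57% were higher. Autophagy genes (9, median 0.06), cell death genes (5, -0.18), MHC class II genes (4, -0.04), interferon genes (2, -0.24), genes of the proximal small intestine (4, 0.10) and Paneth markers outside the gate (4, 0.10) had no member past 1.5-fold. In cells at 40% or more the proximal genes had a median of 0.51, with Onecut2 past 1.5-fold (0.59). Of 3 enteroendocrine and 3 stem genes, only Chgb, which reached the minimum in WT alone, and Olfm4 passed. Both were lower, where 4.23% of all genes were. Tuft, T cell, macrophage and neutrophil, injury and distal intestine lists had no gene that met the minimums.

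Within cells rich in defensins, single defensins varied from cell to cell. At 40% or more, Defa24 ran from 36.2 to 71.9% of a WT cell's gate-gene UMIs (median 44.6%) and from 36.5 to 80.1% of an MG53-TG cell's (median 46.2%). Defa30 ran from 0.242 to 32.7% (median 18.6%) and from 0.1 to 29.3% (median 18.8%). Defa21 ran from 0 to 15.8% (median 1.35%) and from 0 to 11.9% (median 0.832%). Together, Defa21 and Defa22 ran from 0.0131 to 31.9% in WT and from 0 to 27.8% in MG53-TG. Their shares moved together across cells (Pearson r 0.93 over 222 WT and 0.88 over 98 MG53-TG cells), as a description of genes that share 3′ sequence, the promoter letters above and the same libraries.

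The cells were split by the pair at 1 and 4% of gate-gene UMIs, limits chosen after the values were seen. In WT, 96 cells were high, 57 middle and 69 low, and in MG53-TG 34, 25 and 39. High cells thus made up 43.2% of the WT and 34.7% of the MG53-TG cells at 40% or more. Median gate-gene share was 76.1 and 72.9% in high and 72.4 and 67.8% in low cells, and median depth 58554 and 47285.5 against 47845 and 37822 UMIs.

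Of 5017 genes outside the gate with enough UMIs, 19 (0.379%) were 2-fold or more higher and 20 (0.399%) lower in high than in low cells in each library on its own. Gm15293, whose Defa41 promoter shares 91.1% of aligned bases with that of Defa21, had 9423 CPM in high and 1242 CPM in low WT cells, and 11439 and 2822 CPM in MG53-TG. Pnliprp2 had 4174 and 1622 CPM, and 4583 and 1762 CPM. Mptx1, rare in these cells, had 66.2 and 8.34 CPM, and 107 and 10.7 CPM. Slc30a2, the granule zinc carrier, had 104 and 41.7 CPM, and 130 and 56.9 CPM. The other genes among the 10 highest were Gm15292, Serpina1b, Prox1, Slc52a3, Slc16a7 and Idh1.

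Low cells held more of another set. Olfm4 had 233 CPM in low and 7.36 CPM in high WT cells, and 130 and 6.28 CPM in MG53-TG. Over all MG53-TG Paneth cells, 92.5% of Olfm4 UMIs came from 5 cells. Onecut2, a transcription factor of the upper small intestine, had 156 and 17.7 CPM, and 174 and 77.5 CPM. Rnase1 had 1310 and 554 CPM, and 2390 and 919 CPM. Cd81, Ccnd1, Wfdc18, Cmtm7, 1810028F09Rik, Tubb2b and Tff3 completed the 10 lowest. The interval of the high over low log2 ratio spanned 0 for Tubb2b in both libraries. In MG53-TG it also spanned 0 for Ccnd1 and 1810028F09Rik. Mmp7 was close to equal, at 9055 and 8274 CPM in WT and 10111 and 8503 CPM in MG53-TG.

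Genes of intestinal position were looked at by lists of the proximal and distal intestine. Osr2, a transcription factor of the distal list, had 31.6 CPM in high and 10.2 CPM in low WT cells (log2 ratio 1.63, interval 0.66 to 2.74) and 23.0 and 7.11 CPM in MG53-TG (1.70, interval -0.06 to 3.80). Pdx1, of the proximal list, had 0 UMIs in high and 5 in low WT cells, and 0 and 8 in MG53-TG. Gata4, also proximal, did not separate them (-0.78, interval -1.72 to 0.12, and 0.24, interval -1.27 to 1.74). Fabp1 and Rbp2 went apart between the libraries, with log2 ratios of -0.34 and 0.0035 in WT and 4.18 and 3.62 in MG53-TG. Over all MG53-TG Paneth cells, 91.7% of Fabp1 and 85.3% of Rbp2 UMIs came from 5 cells each. The labels name the intestine without a segment, and where each cell came from was not tested.

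**Figure D5:**
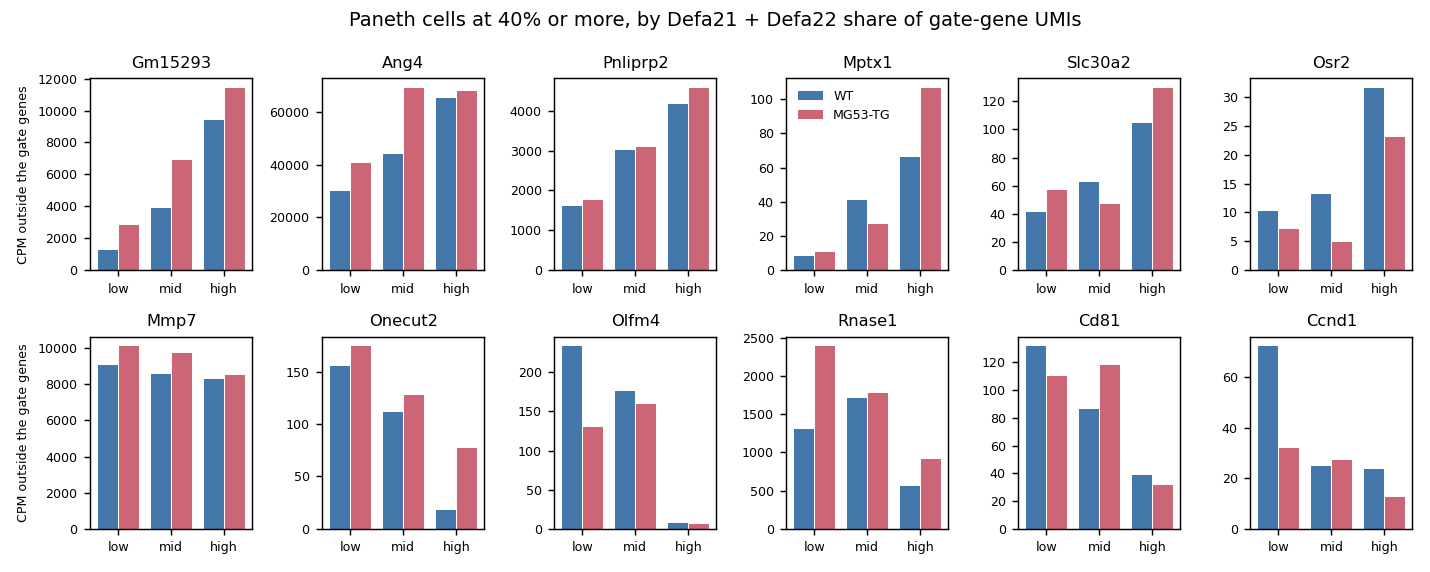
CPM outside the gate genes (vertical axes, from 0, one scale per panel) of 12 genes in Paneth cells at 40% or more with a low, middle or high share of Defa21 and Defa22 (horizontal axes), in WT (blue; 69, 57 and 96 cells) and MG53-TG (red; 39, 25 and 34 cells). Gm15293, Pnliprp2, Mptx1 and Osr2 are highest in high cells, and Olfm4, Onecut2 and Rnase1 are lowest there. Bars are sums over cells of 1 library and carry no error bars.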

How the data were processed

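The deposited values were UMI counts per gene and barcode, made by the authors with Cell Ranger on mm10 (version 4 for WT and 6.0.1 for MG53-TG, per the file headers). The submitters' notes also name Seurat. The WT table holds all barcodes, while the MG53-TG table starts at 500 UMIs. Both list 32285 genes.

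Barcodes were filtered and Paneth cells chosen as stated above, with doublets kept. Counts were summed over the Paneth cells of a library. A ratio needed 30 UMIs in total and 50 CPM in either library, with a call at 1.5-fold. Intervals are exact at 95% (Clopper-Pearson for shares, Poisson for levels, conditional binomial for ratios, Newcombe for the difference of shares). The script was tested on simulated data. Members and gene lists were chosen with earlier results of these data known.

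Named were gate genes with 100 UMIs or more, the 15 genes furthest above other cells by the lower library, the 10 highest and 10 lowest ratios between genotypes, the 2 to 4 most abundant genes of each list with any past 1.5-fold, and Trim72. Other genes, among them Dll1, Dll4, Dclk1, Pdx1, Nupr1, Retnlb and those of the Defa21 and Defa22 groups, were chosen after their values were seen. Tools were python 3.11.15, numpy 2.4.6, scipy 1.17.1, scanpy 1.11.5, statsmodels 0.14.6 and matplotlib 3.10.9. Total depth per library was 158455748 (WT) and 128227881 UMIs (MG53-TG). A few listed genes were counted in their lists but are not reported here by name.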

Additional observations from a re-analysis of the deposited data

Results flagged for a closer look

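Some genes moved one way between the genotypes in Paneth cells and the other way in the remaining kept cells. Apoa4, an apolipoprotein of enterocytes, had a log2 ratio of MG53-TG over WT of -0.73 in Paneth cells and 0.18 in the others. Sis had -0.76 and 0.39, and Slc5a1 -0.80 and 0.38. Of the metallothioneins, Mt1 had -0.69 and 0.28, and Mt2 -0.75 and 0.34. With 1 library per genotype these differences were not tested. In goblet comparison cells the ratio was -0.65 for Apoa4, -0.18 for Mt1, -0.17 for Mt2, -0.01 for Slc5a1 and 0.17 for Sis. Apoa4, Mt1 and Mt2 were thus below 0 there too. Mt1 and Mt2 were under 1.5-fold in Paneth cells at 40% or more (-0.52 and -0.49). Apoa4 was so with the gate at 5% (-0.22), in cells chosen by Mmp7 and Mptx2 (-0.30) and over all UMIs (-0.55), Slc5a1 in cells chosen by Mmp7 and Mptx2 (-0.55), and Sis without the highest Scrublet scores (-0.51).

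Shallow barcodes outside the kept cells also held gate genes. Between 500 UMIs and the minimum, 204 WT barcodes had 10% or more of their UMIs in gate genes, against 3 in MG53-TG. The WT table holds all barcodes, while the MG53-TG table starts at 500 UMIs. The 204 WT barcodes had a median of 661 UMIs, a median gate-gene share of 22.7%, and 4648 CPM of Mptx2, 1751 CPM of Mmp7 and 16284 CPM of Reg3b. Defa24 made up 47.2% of their gate-gene UMIs. They also held 6551 CPM of Apoa1 and 4800 CPM of Fabp1, against 1606 and 1499 CPM in WT Paneth cells. WT barcodes with 1 to 99 UMIs held 6919 CPM of Apoa1, 2637 CPM of Fabp1, 446 CPM of Mptx2 and 334 CPM of Mmp7. The part of RNA from outside cells was not tested.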

How the results depend on the processing

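No paired analysis was possible because each genotype is 1 library, and no replicate could be left out. The lower Paneth share in MG53-TG kept its direction under all 8 other choices of cells. It ran from -0.507 points at a gate of 5%, where the interval (-1.35 to 0.359) spanned 0, to -3.18 with 500 UMIs as the minimum. The 500 UMI setting added 204 WT and 3 MG53-TG barcodes. WT was deposited with all barcodes and MG53-TG from 500 UMIs on, so this setting may join unlike sets. The difference was -1.86 with cells chosen by Mmp7 and Mptx2. The gate-gene share difference was -10.6 points at a gate of 5%, -2.03 at 20%, -1.08 at 40%, -5.00 with a mitochondrial limit of 50%, -4.75 with 500 UMIs, -5.13 with members of at least 6000 UMIs, -5.77 without the highest Scrublet scores, -8.99 with Mmp7 and Mptx2, and -7.77 as a mean of cells. The gate at 40% and the 6000 UMI minimum were chosen after seeing the data.

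Counts of genes higher and lower in MG53-TG were 44 and 52 at a gate of 5%, 107 and 155 at 20%, 9 and 25 with Mmp7 and Mptx2, 68 and 65 as a mean of cells, 102 and 21 over all UMIs, 175 and 164 in thinned cells, 171 and 313 from 20 CPM, and 475 and 1138 with no CPM minimum. The 40 genes above other cells, of 2045, became 18 of 742 over all UMIs, 65 of 4545 from 20 CPM and 157 of 9832 with no minimum. With Mmp7 and Mptx2, Tubb5 turned to 0.0309, Top2a to 0.334, and Hmgb2 and the cell cycle median to 0.0499 each, and in thinned cells Eno1 turned to 0.86. Of 44 named genes past 1.5-fold, 40 kept their sign and 8 stayed past it under every alternative run. The causes were not tested. Depth limits the rarer genes, since intervals widen with few UMIs.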
